A study of Mus musculus with 6 samples.

Results

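The subject is a module of 41 mouse genes that copy DNA or supply that process, chosen by name. They comprise the MCM helicase and the factors that load and activate it, the sliding clamp PCNA and its loader, the replicative polymerases, and genes for strand joining, deoxynucleotide supply and chromatin assembly. A gene counted as measured if at least 1 probe set was annotated with its symbol alone, which held for 40 of the 41, out of 22180 genes measured in all. Rfc4, a subunit of the clamp loader, shares its probe set with another gene and is not analysed here. Expression was read on Affymetrix Mouse Gene 2.0 ST arrays in 6 libraries, 1 for each group. The samples carry the same strain label, DBA/2J, and are all labelled female. The groups are undifferentiated induced pluripotent stem (iPS) cells, which were kept on feeder cells, 3 cultures differentiated from iPS cells, and cells labelled as cardiomyocytes from neonatal and from adult mouse heart. The cultures spent 5 days in suspension as embryoid bodies, were then plated on gelatin with 1% DMSO, with 100 ng/ml of the growth factor NRG-1 (neuregulin 1) or with both, and are labelled day 7. No differentiated culture without an added agent was among the samples, so every difference between a culture and iPS cells covers differentiation and agent together. Values are log2 expression after RMA, and a difference is the log2 value of the first named library minus that of the second, so that 1 is a 2-fold difference. With 1 library per group nothing could be tested, and all differences below describe these libraries only.

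Cells copy their DNA in S phase. In the preceding gap phase the origin recognition complex (ORC) marks starting sites, and CDC6 and CDT1 load the MCM ring there, a step called licensing that geminin later blocks. CDC45 and the GINS complex then turn the ring into an active helicase, primase and the polymerases build new strands on the PCNA clamp, and CAF-1 packs them into chromatin. Many of these genes are transcribed in a pulse before S phase under E2F transcription factors. Mouse pluripotent cells divide fast with a short gap phase, whereas heart muscle cells leave the cell cycle soon after birth, and other heart cells such as fibroblasts keep the ability to divide.

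Some library facts bear on all results. The pluripotency gene Nanog was at 11.85 in iPS cells and between 4.29 and 4.83 elsewhere. The 8 pluripotency markers had medians of 10.61 in iPS cells, 5.15 to 5.30 in the cultures, 4.55 in the neonatal and 4.79 in the adult library. Sox2 was at 11.49 in iPS cells, 6.70 to 7.89 in the cultures, 4.60 in the neonatal and 4.76 in the adult library. The collagen gene Col1a1 was at 8.61 in iPS cells, 11.23 to 11.56 in the cultures, 12.99 in the neonatal and 13.05 in the adult library. The median of the 12 cardiomyocyte markers was 5.26 in iPS cells, 6.55 to 7.01 in the cultures, 6.11 in the neonatal library and 5.05 in the adult library, where the median of all values was 5.18. Cardiac troponin T (Tnnt2) was at 8.22 in the adult library and the heavy chain Myh6 at 5.05, against 6.35 and 5.82 in iPS cells. The 10 fibroblast markers had medians of 10.45 in the neonatal and 11.37 in the adult library. In the cultures their medians were 8.27 to 8.71, against 6.68 in iPS cells. Thy1 went the other way, by -0.71 in the mean of the 3 cultures. The macrophage gene Lyz2 was at 5.98 in the neonatal and 8.24 in the adult library. Of the 8 macrophage markers, 6 were above the mean of the cultures in both libraries, but Cd68 and Csf1r were below it. Cd68 was at 10.9 to 11.3 in the cultures, against 7.25 and 8.82. Csf1r was at 8.04 to 8.21, against 6.09 and 6.25. The adult and neonatal libraries are therefore named here by their labels, and the median cardiomyocyte marker was no higher in the adult library than in iPS cells. Epithelial and endoderm markers had medians of 10.11 to 10.55 in the cultures and at most 6.48 elsewhere. The Y-linked genes Eif2s3y, Kdm5d and Uty, at 3.27, 3.08 and 4.06 in iPS cells and at most 3.65 in the cultures, were at 6.20, 6.17 and 7.14 in the neonatal and 8.15, 7.02 and 7.55 in the adult library, against the label female. Xist was at 8.78 in the neonatal and 3.39 in the adult library, and between 5.97 and 6.91 in the other libraries. The part of cell composition in the results below was not tested. In such bulk samples, fewer dividing cells and less RNA per dividing cell cannot be told apart.

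The promoters of the members were examined because most of the members were lower together. RefSeq promoter sequences of build GRCm38.p6, running from 250 bases before to 50 bases after a gene's start, were at hand for 32 of the 40 measured members. The E2F core motif was searched on both strands in its 4 spellings TTTCCCGC, TTTCGCGC, TTTGCCGC and TTTGGCGC. It was present in 13 of the 32 member promoters (40.6%), in 2.6% of 27025 genes with a promoter sequence and in 4.66% of 10089 such genes that passed the filter on dim genes described below. The CCAAT box (CCAAT, either strand) was in 22 of the 32 (68.8%) and in 41.1% of all promoters. The CHR element (TTTGAA, either strand), known from genes of mitosis, was in 5 of the 32 (15.6%), in 20.2% of all promoters, in 13.7% of those whose genes passed the filter and in 11 of 16 promoters of a list of mitosis genes (68.8%), of which 1 held the E2F motif. A match is a description of these windows and no evidence of binding.

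Shown are windows of 120 bases upstream of the gene start for the 6 members with the largest deficits in the DMSO culture that held an E2F motif there, so that the motif can be seen in place. Capitals mark the motif in either orientation, and overlapping matches run together. The windows lie at chrX:93632230-93632349 (Pola1, minus strand), chr1:128359721-128359840 (Mcm6, minus), chr8:75109302-75109421 (Mcm5, plus), chr5:138171985-138172104 (Mcm7, minus), chr4:108579334-108579453 (Orc1, plus) and chr11:98907957-98908076 (Cdc6, plus). Their last bases lie 75, 16, 88, 102, 1 and 75 bases before the start, in that order.
Pola1: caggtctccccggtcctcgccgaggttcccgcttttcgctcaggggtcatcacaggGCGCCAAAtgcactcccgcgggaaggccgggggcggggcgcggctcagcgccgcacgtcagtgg
Mcm6: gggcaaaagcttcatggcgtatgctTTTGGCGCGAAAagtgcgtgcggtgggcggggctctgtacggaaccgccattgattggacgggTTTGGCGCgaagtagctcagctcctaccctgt
Mcm5: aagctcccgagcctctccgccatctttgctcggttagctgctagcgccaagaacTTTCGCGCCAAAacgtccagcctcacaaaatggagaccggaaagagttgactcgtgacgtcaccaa
Mcm7: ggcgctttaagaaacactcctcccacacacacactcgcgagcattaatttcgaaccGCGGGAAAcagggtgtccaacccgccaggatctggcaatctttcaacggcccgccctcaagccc
Orc1: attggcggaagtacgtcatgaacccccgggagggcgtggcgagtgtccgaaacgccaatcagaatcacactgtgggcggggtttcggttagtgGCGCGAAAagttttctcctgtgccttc
Cdc6: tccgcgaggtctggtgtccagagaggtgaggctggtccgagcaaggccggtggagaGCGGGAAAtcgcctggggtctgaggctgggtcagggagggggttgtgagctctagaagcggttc
The Mcm6 window holds 3 matches, the Mcm5 window 2 and the others 1 each. Across the 32 members, the median difference between the DMSO culture and iPS cells was -2.25 for the 13 with the E2F motif and -1.59 for the 19 without it. The ranges overlapped, from -2.79 to -0.74 and from -3.47 to -0.47, and Rrm2, the member with the largest deficit, held no E2F match in this window.

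Undifferentiated iPS cells had the highest level of nearly the whole module. All 40 members were lower in each of the 3 cultures than in iPS cells, and 31 were at least 2-fold below iPS cells in every culture. With libraries shifted to an equal median level of 9 housekeeping genes, as described below, 22 of 40 were lower in all 3 cultures, beside 5.09% of all genes. Among the 12905 genes whose mean over the libraries reached the median of all values (5.20), a filter that all 40 members passed, 41.1% were below iPS cells in all 3 cultures and 9.42% were at least 2-fold below in every culture. With DMSO, 35 of 40 members were at least 2-fold lower than in iPS cells, beside 12.1% of all genes, and 0 were 2-fold higher, beside 13.3%. With NRG-1, 33 were lower, beside 13.5%, and 0 higher, beside 11.5%. With DMSO and NRG-1, 35 were lower, beside 11.8%, and 0 higher, beside 13.2%. The median member difference was -2.0 with DMSO, -1.70 with NRG-1 and -1.71 with both (3.99-fold, 3.26-fold and 3.27-fold lower), where the median of all genes that passed the filter was 0.00, -0.01 and 0.00. These 3 comparisons share the iPS library. Between probe sets of the same gene these differences had an SD of 0.499 to 0.522, over 431 genes with 2 probe sets that both passed the filter, which is the only technical error that could be measured.

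The neonatal library was nearer to iPS cells than the adult library was. In the neonatal library 12 of 40 members were at least 2-fold below iPS cells, beside 9.59% of all genes, with a median of -0.78, and 0 were higher, beside 12.7%. In the adult library 34 were lower, beside 12.9% of all genes, with a median of -1.70, and 0 were higher, also beside 12.9%. The iPS library had the highest of the 6 values for 37 of 40 members, which held for 30.1% of all genes. The exceptions were Fen1 and Rrm1, highest in the neonatal library, and Tyms, highest in the adult library. Shifting each library to an equal median of 9 housekeeping genes gave medians of all genes against iPS cells of 0.79 to 1.53. The members at least 2-fold lower then numbered 12, 13 and 3 with DMSO, NRG-1 and both, beside 1.85%, 2.71% and 1.07% of all genes. The neonatal library had 1, near the 2.71% of all genes, and the adult library 18, beside 3.69%. The neonatal median was 0.09. That shift moves all genes of a library equally, so the distance of the members from the median of all genes stayed as it was.

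**Figure D1:**
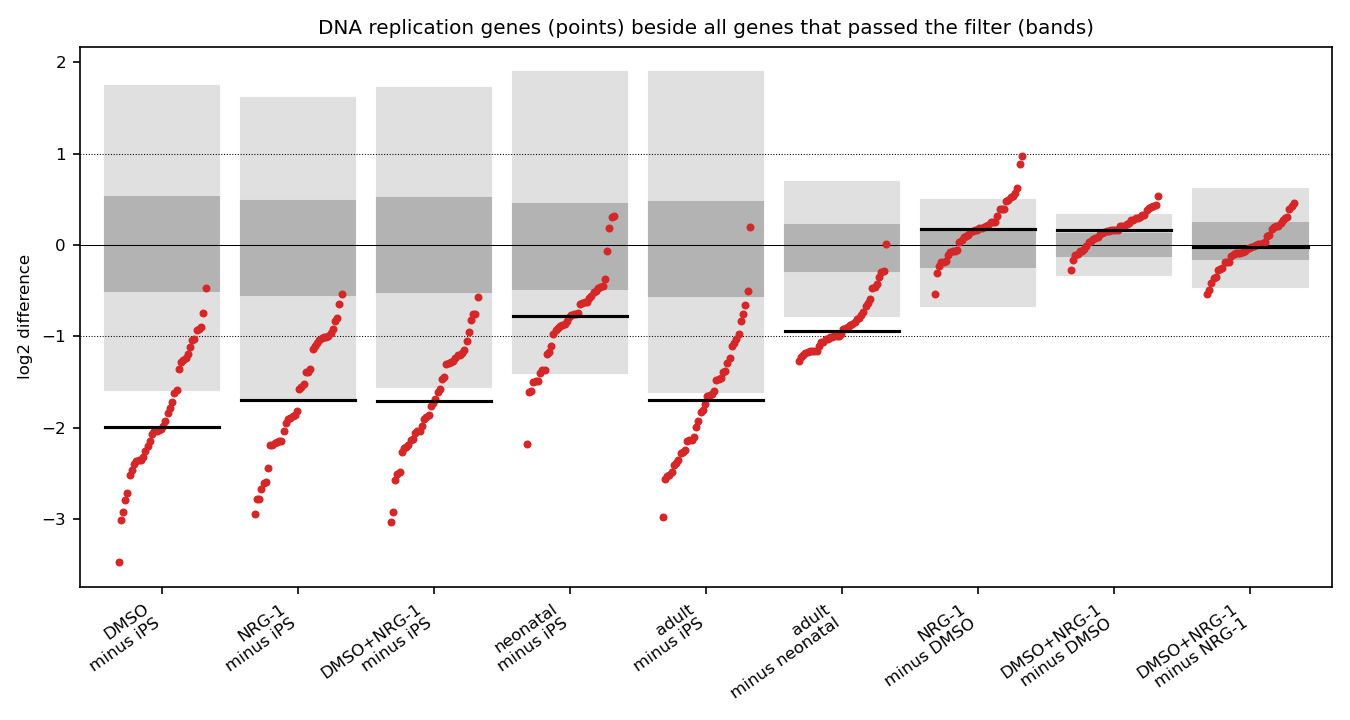
Log2 difference of each of the 40 members (points, sorted within a comparison) and their median (black line) in 9 comparisons, over bands that hold the central 90% (light) and 50% (dark) of the 12905 genes that passed the filter. The median of the members lies below that of all genes in the 5 comparisons with iPS cells and in adult minus neonatal, and close to 0 between the cultures, and in those 6 the members above 0 are Fen1, Rrm1 and Tyms in neonatal minus iPS and Tyms in adult minus iPS and adult minus neonatal.

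The 6 subunits of the MCM helicase ring, which unwinds DNA ahead of the polymerases, were at least 2-fold lower than in iPS cells in all 3 cultures and in the adult library. Mcm2 was at 10.71 in iPS cells, 7.79 with DMSO, 7.93 with NRG-1, 8.20 with both, 9.22 in the neonatal and 8.19 in the adult library. It was thus highest in iPS cells, next highest in neonatal cells and close in the other 4, and was 7.57-fold lower with DMSO than in iPS cells. Mcm4, the subunit with the smallest deficit, was at 10.46, 8.43, 8.90, 8.73, 9.83 and 8.83 in the same order of libraries. The median over the 6 subunits was -2.40 with DMSO, -2.14 with NRG-1, -2.12 with both, -1.06 in the neonatal and -2.22 in the adult library. In the neonatal library Mcm2, Mcm5 and Mcm7 were at least 2-fold below iPS cells (-1.49, -1.49 and -1.19), whereas Mcm3, Mcm4 and Mcm6 differed by -0.93, -0.63 and -0.83.

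Licensing genes were lower in the cultures, and Cdt1, Orc1 and Cdc6 were also at least 2-fold below iPS cells in the neonatal library. Cdt1, which brings the MCM ring to origins, was at 10.20 in iPS cells, 7.84 with DMSO, 8.03 with NRG-1, 8.14 with both, 8.03 in the neonatal and 7.22 in the adult library. Its neonatal value lay within the range of the cultures, and its deficits in the neonatal (-2.18) and adult (-2.98) libraries had the largest size among the 40 members. Orc1, the ORC subunit whose level changes over the cell cycle, was at 8.10, 6.32, 6.71, 6.66, 6.50 and 5.83 in that order of libraries. The neonatal value again lay among the cultures and the adult value below them all. Cdc6, the loading factor, was at 8.83, 7.22, 7.32, 7.53, 7.67 and 6.55. Orc2 and Orc6 differed less from iPS cells, by -1.12 and -1.19 with DMSO, -0.51 and -0.46 in the neonatal and -0.97 and -1.64 in the adult library. Gmnn, which encodes the CDT1 inhibitor geminin, was at 7.97 in iPS cells, 5.97 with DMSO, 6.94 with NRG-1, 6.40 with both, 7.08 in the neonatal and 5.85 in the adult library. Its 3 cultures were the furthest apart of any member, spanning 0.97.

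Genes that activate the helicase differed widely among themselves. Gins1 was at 7.88 in iPS cells, 4.88 with DMSO, 5.45 with NRG-1, 4.96 with both, 6.51 in the neonatal and 5.35 in the adult library, a deficit of 8.03-fold with DMSO. Its partner Gins3 was at 8.20, 7.45, 7.27, 7.38, 7.64 and 7.17, so that it was less than 2-fold lower in each culture although both proteins belong to the same GINS complex. Gins2 and Gins4 lay between them, with -1.93 and -1.28 for DMSO minus iPS. Mcm10, a scaffold at the fork, was lower by -2.20, -1.95 and -2.04 with DMSO, NRG-1 and both, and by -1.5 and -2.41 in the neonatal and adult libraries. Cdc45 was less than 2-fold lower in each culture (-0.92, -0.99 and -0.75) and lower by -1.45 in the adult library.

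The sliding clamp gene Pcna, a common marker of dividing cells, had one of the smallest deficits in the cultures. It was at 10.95 in iPS cells, 10.05 with DMSO, 10.30 with NRG-1, 10.20 with both, 10.21 in the neonatal and 9.58 in the adult library. The neonatal value fell among the cultures, the adult value was lowest, and only the adult library was at least 2-fold below iPS cells. Of the clamp loader genes, Rfc5 had deficits of -2.35, -2.19 and -2.22 in the cultures, -1.61 in the neonatal and -2.48 in the adult library. Rfc1, the large subunit, differed by -1.24, -1.02 and -1.29 in the cultures and Rfc3 by -1.03, -1.14 and -0.95. Rfc2 was at 8.57 in iPS cells, 6.74, 6.68 and 6.88 in the cultures, 8.08 in the neonatal and 7.11 in the adult library.

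By the mean over probe sets, all 8 polymerase and primase genes were at least 2-fold lower in each culture, and 0 of them in the neonatal library. Pola1, the catalytic subunit of polymerase alpha, was at 8.84 in iPS cells, 6.06 with DMSO, 6.25 with NRG-1, 6.27 with both, 8.10 in the neonatal and 7.04 in the adult library. Both heart-derived values were above all cultures. Prim1, the catalytic primase subunit, also had both heart-derived values above all cultures, at 9.66, 7.26, 7.07, 7.47, 8.75 and 7.74. Prim2, the regulatory primase subunit, was nearly as high in the neonatal library (9.13) as in iPS cells (9.19), and at 7.61 to 7.92 in the cultures. Pold1 and Pole2, subunits of polymerases delta and epsilon, differed from iPS cells by -2.03 and -2.07 with DMSO and by -0.62 and -0.58 in the neonatal library. Pold2 differed by -2.14 with DMSO, -2.67 with NRG-1 and -2.21 with both. Pola2 had the smallest deficits of the 8 in the cultures, -1.26, -1.01 and -1.05. Pole, the catalytic subunit of polymerase epsilon, has 2 probe sets, of which the brighter was at 9.67 in iPS cells, 6.16, 6.84 and 6.70 in the cultures, 8.35 in the neonatal and 7.10 in the adult library. The other stayed between 3.93 and 4.49, so the mean understates the differences of the brighter probe set from iPS cells. By the brighter probe set alone, Pole was also at least 2-fold below iPS cells in the neonatal library (-1.32, where the mean gave -0.86).

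Among genes for single-strand binding and the joining of Okazaki fragments, Lig1, the replicative ligase, was at 9.53 in iPS cells, 7.21 with DMSO, 7.70 with NRG-1, 7.63 with both, 8.16 in the neonatal and 6.96 in the adult library. Rpa2, a subunit of the single-strand binding protein RPA, differed by -2.02, -1.87 and -1.88 in the cultures, -1.40 in the neonatal and -2.24 in the adult library. Rpa1 and the flap endonuclease gene Fen1 have 2 probe sets each. The brighter Rpa1 probe set was at 10.02 in iPS cells, 8.46, 8.16 and 8.37 in the cultures, 9.34 in the neonatal and 8.88 in the adult library, and the dimmer one lay between 4.78 and 5.52. For Fen1 the brighter was at 7.46, 6.33, 6.6, 6.46, 7.40 and 6.15 and the dimmer at 5.43, 5.61, 5.21, 5.29, 6.13 and 5.25. The mean of Fen1 was above iPS cells in the neonatal library by 0.32, a sign that the brighter probe set did not share.

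Deoxynucleotide supply gave the widest contrast between cultures and heart-derived libraries. Rrm2, the regulated subunit of ribonucleotide reductase, was at 7.60 in iPS cells, 4.13 with DMSO, 4.66 with NRG-1, 4.57 with both, 6.85 in the neonatal and 5.86 in the adult library. This deficit, 11.1-fold with DMSO, was the largest of the 40 members, and both of its probe sets showed it (9.60 against 5.26, and 5.60 against 3.0). Rrm1, the large subunit, was at 10.52, 8.93, 8.62, 9.05, 10.83 and 10.02, so the neonatal library was 0.31 above iPS cells and the adult library differed by -0.50. Tyms, thymidylate synthase, was at 8.55, 7.51, 7.60, 7.41, 8.75 and 8.76, and was the only member above iPS cells in both heart-derived libraries. A further probe set annotated to Tyms together with its pseudogene was left out, and whether the probe set used also reads the pseudogene was not tested. The differences of 0.19 and 0.20 are smaller than the probe set disagreement (SD 0.552 and 0.557).

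The 2 large subunits of chromatin assembly factor 1 (CAF-1) differed from each other. Chaf1b was at 9.82 in iPS cells, 7.11 with DMSO, 7.04 with NRG-1, 7.34 with both, 8.95 in the neonatal and 7.68 in the adult library. Chaf1a was at 8.46, 6.74, 7.63, 7.28, 7.36 and 6.63. The neonatal library thus stood far above the cultures for Chaf1b and among them for Chaf1a.

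**Figure D2:**
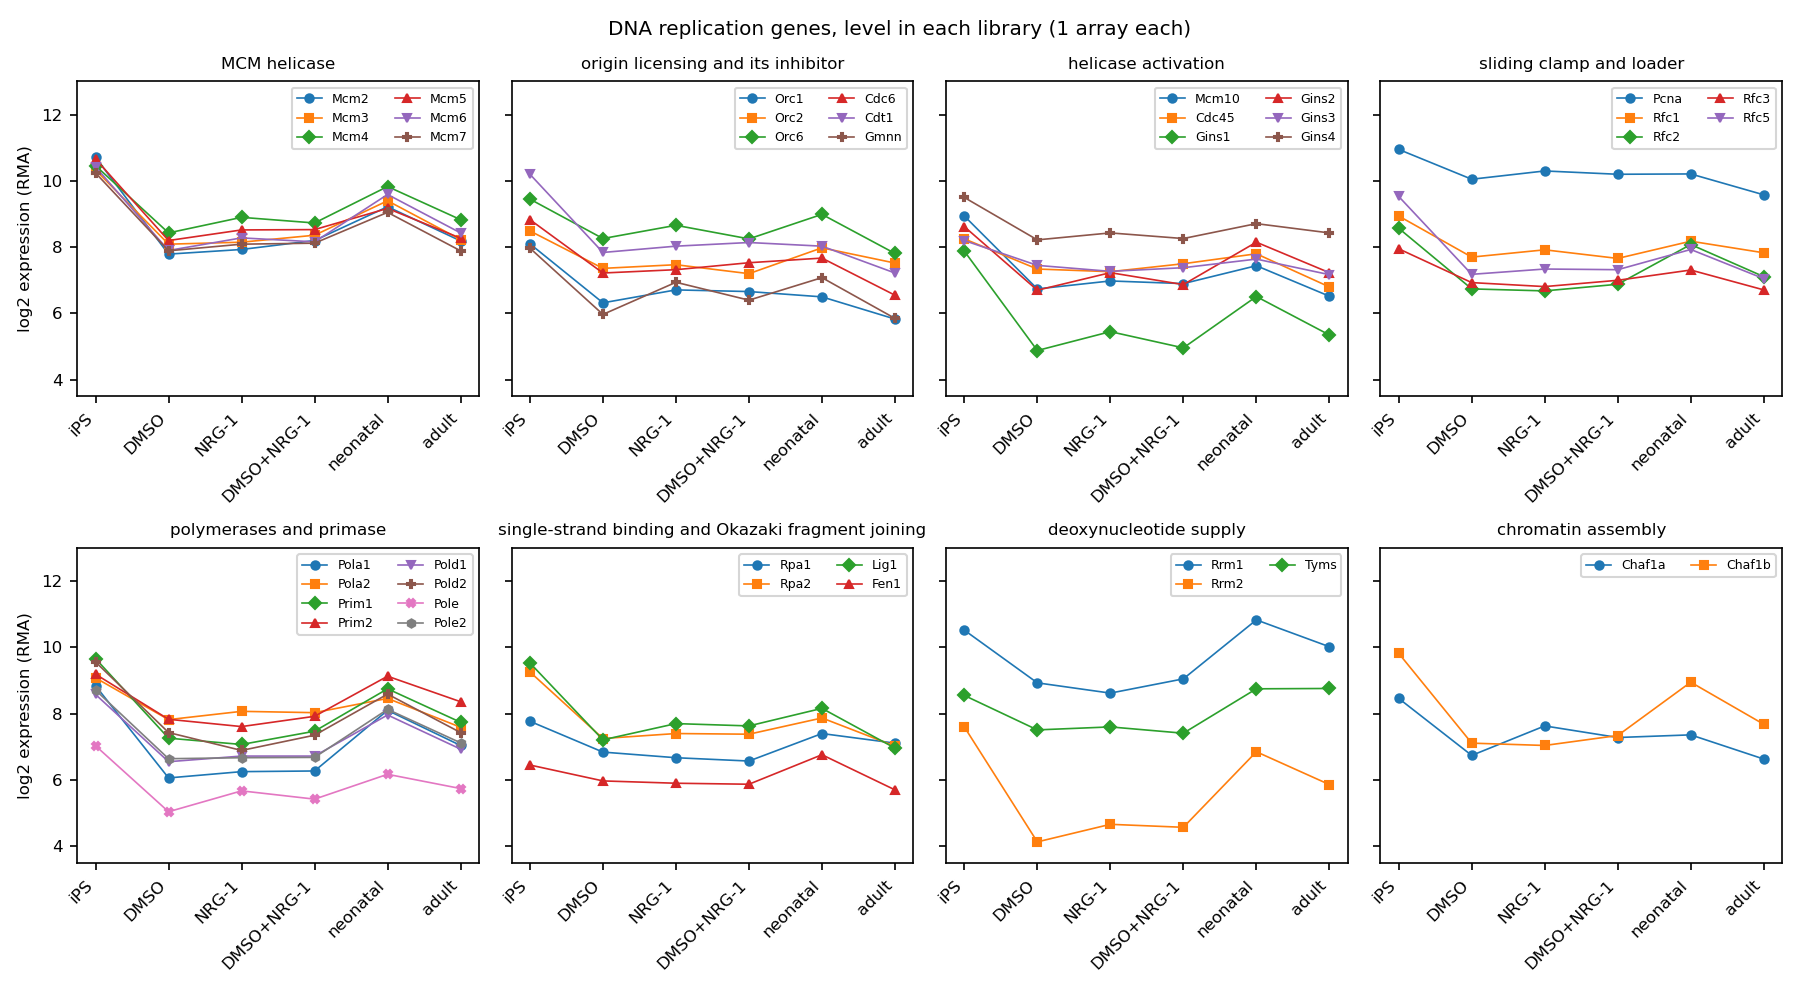
Log2 level of each of the 40 members in each of the 6 libraries, in panels by role, with 1 array per point and thin lines only joining the values of a gene. Nearly every gene is highest in iPS cells, low in the 3 cultures, higher again in the neonatal and low in the adult library, whereas Rrm1 and Tyms stay near or above the iPS level in the heart-derived libraries.

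**Figure D3:**
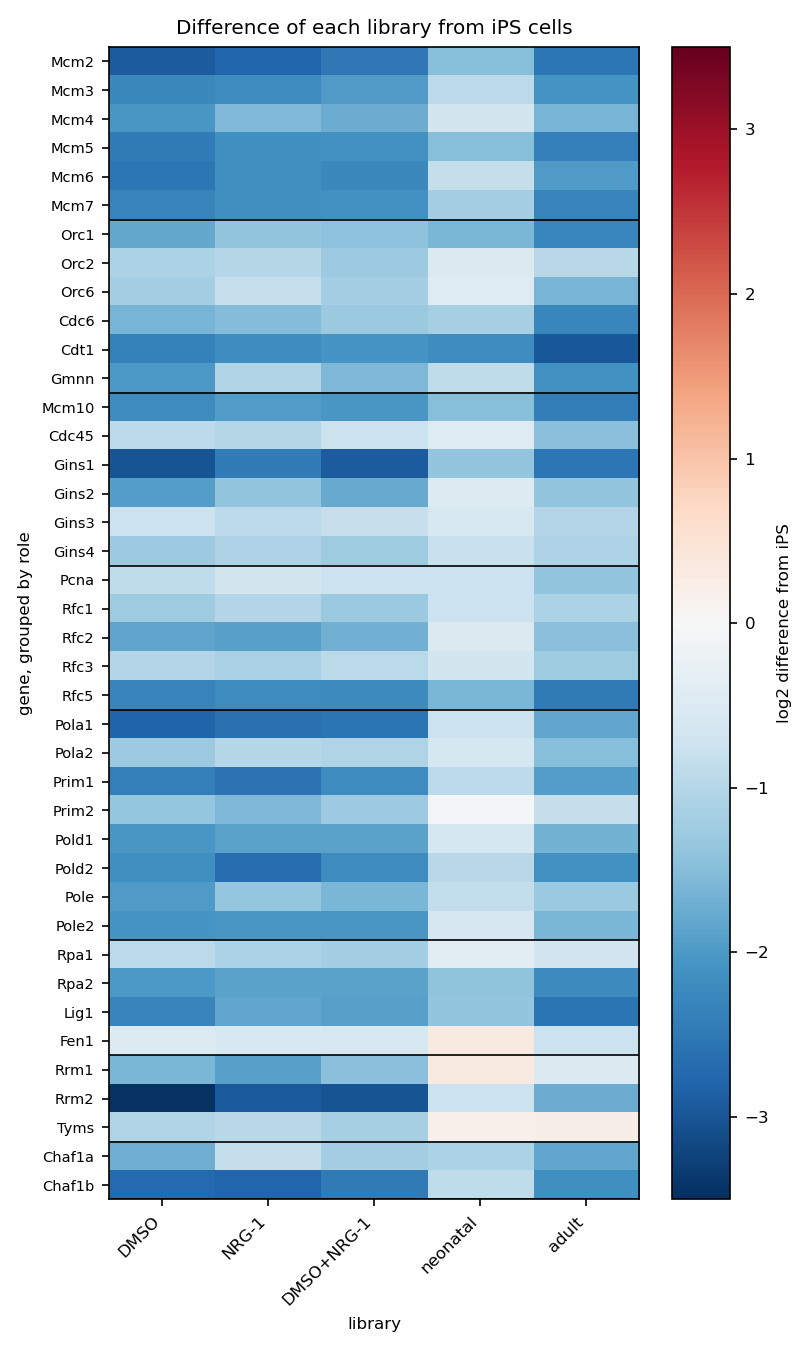
Log2 difference of each library (columns) from iPS cells for the 40 members (rows, separated by lines into roles), blue for lower and red for higher. The 3 culture columns are blue throughout, the neonatal column is paler, and the red cells are Fen1, Rrm1 and Tyms in the neonatal and Tyms in the adult library.

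The adult and neonatal libraries were set against each other. Nearly the whole module was lower in the adult library. Of the 40 members, 39 had their lower value in the adult library, beside 53.6% of all genes, with Tyms as the exception (0.01). At least 2-fold lower were 17, beside 2.67% of all genes, and 0 were higher, beside 2.06%. The median was -0.95 (1.93-fold lower), where that of all genes was -0.03, and the differences ran from -1.27 for Chaf1b to 0.01 for Tyms. Many members lay near the 2-fold line, and after cyclic loess normalization 11 instead of 17 were past it. Gmnn (-1.23), Lig1 (-1.20), Orc6 (-1.18) and Mcm3 (-1.17) came next to Chaf1b. Gins4 (-0.28), Rpa1 (-0.29, by its brighter probe set -0.46) and Rfc1 (-0.35) had the smallest deficits after Tyms. All 12 cardiomyocyte markers were also lower in the adult library, 7 of them at least 2-fold, with a median of -1.31. All 8 macrophage markers were higher there, with a median of 1.06, and the 10 fibroblast markers had a median of 0.28. The Y-linked genes went against the label in both libraries, and Xist in the adult library. Their part in this difference was not tested.

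The heart-derived libraries were then compared with the cultures, a comparison added after the values had been seen. The neonatal library was above all 3 cultures for 36 of 40 members, beside 40.6% of all genes, and at least 2-fold above the highest culture for 15, beside 8.14%. The 4 members within the range of the cultures were Orc1, Cdt1, Pcna and Chaf1a. Against the mean of the cultures the neonatal library differed by 2.40 for Rrm2, 1.96 for Rrm1, 1.91 for Pola1 and 1.78 for Chaf1b, with a median of 0.77 over the module. The adult library was above all cultures for 16 of 40 members, a share close to the 38.7% of all genes, and the median was 0.10. Its differences from the mean of the cultures went both ways. The 3 deoxynucleotide genes were higher (Rrm2 by 1.40, Tyms by 1.25 and Rrm1 by 1.15), as was Pola1 by 0.85, while Cdc6, Cdt1, Orc1 and Pcna differed by -0.80, -0.78, -0.74 and -0.61. Under the housekeeping shift the neonatal library was above all cultures for 23 members, beside 17.0% of all genes, and the adult library for 4, beside 12.8%.

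**Figure D4:**
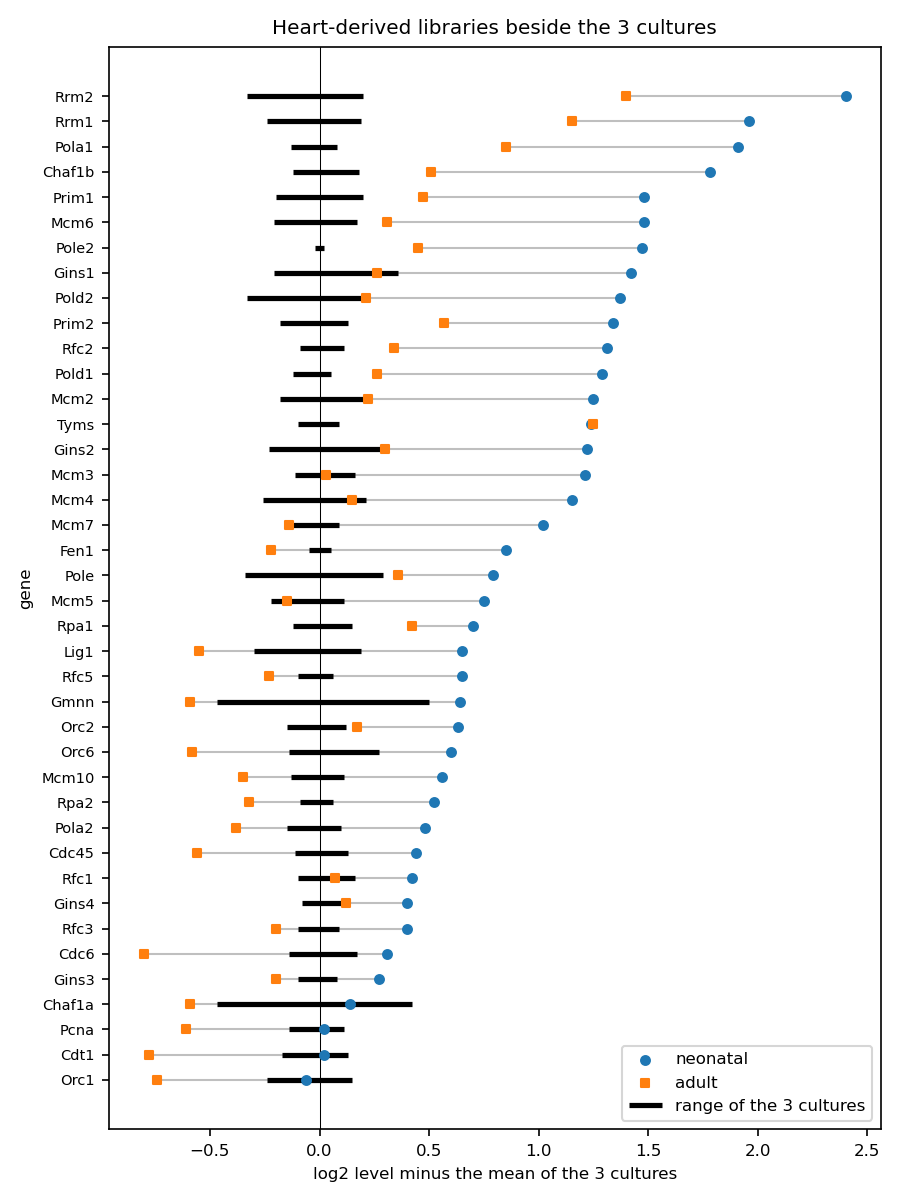
Log2 level of the neonatal (circles) and adult (squares) libraries minus the mean of the 3 cultures for each of the 40 members, with black bars for the range of the cultures. Neonatal values lie to the right of the bars except for Orc1, Cdt1, Pcna and Chaf1a, and adult values lie on both sides, with Rrm2, Tyms and Rrm1 furthest to the right.

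The cultures were compared among themselves to ask how the module differed between DMSO, NRG-1 and both. The differences were small, and 0 members were 2-fold apart in any of the 3 comparisons, beside 2.07% of all genes for NRG-1 minus DMSO, 0.0775% for both agents minus DMSO and 1.33% for both agents minus NRG-1. With NRG-1 alone, 29 of 40 members were above the DMSO culture, beside 46.0% of all genes, with a median of 0.18 where all genes had -0.03. With both agents, 32 were above DMSO alone, beside 50.8% of all genes, with a median of 0.17 where all genes had 0.00. These 2 comparisons share the DMSO library, whose value was the lowest of the 3 cultures for 25 members, beside 30.0% of all genes. The 6 MCM genes were all higher with both agents than with DMSO, by 0.24 to 0.41, and with NRG-1 than with DMSO, by 0.06 to 0.48. For NRG-1 minus DMSO, Mcm2 and Mcm3 changed sign under the housekeeping shift, which among the cultures equalised Hprt alone. The largest differences for NRG-1 minus DMSO were those of Gmnn (0.97), Chaf1a (0.89) and Pole (0.62), and Pold2 (-0.54) and Rrm1 (-0.31) lay at the other end. For both agents minus DMSO, Chaf1a (0.54), Rrm2 (0.44) and Gmnn (0.43) were highest and Rpa1 (-0.27) lowest. The brighter Rpa1 probe set had only -0.09, where Orc2 had -0.16. The probe set disagreement had an SD of 0.307 for NRG-1 minus DMSO and 0.184 for both agents minus DMSO. Most single differences were within 2 SD (0.61 and 0.37). Both probe sets of a gene lie on the same arrays, so this SD leaves out variation between arrays and between cultures, which could not be measured. Between both agents and NRG-1 alone the median was -0.03. With the housekeeping shift, all genes had medians of -0.21 for NRG-1 minus DMSO and 0.27 for both agents minus DMSO. In these, 9 and 8 members changed sign. For both agents minus NRG-1 the median of all genes was 0.49, and 21 members changed sign. In all 3 cultures Hprt held the median housekeeping level, so the shift equalised Hprt alone. For NRG-1 minus DMSO Hprt differed by 0.18 and the other housekeeping genes by -0.49 (Tfrc) to -0.01 (B2m). For both agents minus DMSO Hprt differed by -0.27 and the others by -0.08 (Ywhaz) to 0.08 (Tbp). The shift moves all genes of a library equally, so it cannot alter the distance of a member from the median of all genes.

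Other genes of the pathway were read from 5 lists, with a list of mitosis genes beside them, in the mean of the 3 cultures and of the 2 heart-derived libraries against iPS cells. The counts cover all measured genes of a list, and stand beside the 12.3% of all genes that were at least 2-fold lower and the 12.4% that were higher in the culture mean, and the 9.59% that were lower in the neonatal library. Of 12 other origin and firing factors, 8 were at least 2-fold lower in the culture mean, with a median of -1.28. Ticrr, which helps to fire origins, differed by -3.03 in the culture mean and -2.51 in the heart-derived mean, Dbf4, the activator of the CDC7 kinase, by -1.96 and -1.44, and the MCM-related Mcm8 by -1.82 and -1.85. Of 19 other fork, repair and checkpoint factors, 14 were lower and 1 higher in the culture mean, with a median of -1.46. Uhrf1, which couples DNA methylation to replication, was at 9.64 in iPS cells, 6.31 to 6.62 in the cultures, 7.99 in the neonatal and 7.02 in the adult library. The nuclease gene Dna2 differed by -2.52 and -2.12, and the fork protection partners Tipin and Timeless by -2.48 and -2.06 in the culture mean and -1.40 and -2.07 in the heart-derived mean. The gene that was higher was Pold4, the small subunit of polymerase delta, named here after its values were seen. It was at 6.27 in iPS cells and 7.39 to 7.80 in the 5 other libraries, opposite in direction to its partners Pold1 and Pold2.

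Further deoxynucleotide genes resembled Rrm1 and Rrm2 in part. Of 11 measured, 8 were at least 2-fold lower in the culture mean and 2 in the neonatal library (12.3% and 9.59% of all genes), with medians of -1.58 and -0.24. The thymidine kinase gene Tk1 was at 8.67 in iPS cells, 6.53, 6.52 and 6.82 in the cultures, 8.94 in the neonatal and 7.92 in the adult library. Dctd, a deaminase on the route to thymidylate, was at 9.17, 7.38, 6.80, 7.27, 8.94 and 8.49. Shmt1, which supplies folate carbon units, was by contrast low in all 5, at 8.68 in iPS cells and at 6.54, 6.68, 6.77, 6.98 and 5.93. Cad and Dtymk, for pyrimidine synthesis and thymidylate phosphorylation, differed by -1.82 and -1.84 in the culture mean and by -1.12 and -1.24 in the heart-derived mean.

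Upstream regulators did not move as a block. In the culture mean, 8 of 16 E2F and RB family genes were lower by 2-fold or more and 0 higher (12.3% and 12.4% of all genes), with a median of -0.90. Mybl2, a transcription factor of dividing cells, was at 10.30 in iPS cells, 6.63, 6.76 and 6.98 in the cultures, 6.83 in the neonatal and 5.94 in the adult library. The atypical E2F genes E2f7 and E2f8 differed by -1.39 and -1.75 in the culture mean, and in the neonatal library by 0.50 and -0.74. E2f4, a mostly repressive family member, differed by -1.07 in the culture mean and -1.39 in the heart-derived mean. Of 15 G1 to S cyclins, kinases and inhibitors, 6 were lower and 3 higher in the culture mean, where the share that was higher is near that of all genes. Ccne1, cyclin E1, was at 9.54 in iPS cells, 6.92 to 6.99 in the cultures, 7.82 in the neonatal and 7.10 in the adult library. Ccnd2, cyclin D2, went the other way, at 7.56, 10.40, 9.78, 10.38, 11.08 and 10.89, while cyclin D3 (Ccnd3) differed by -1.90 and -1.48. The kinase gene Cdk6 and the inhibitor gene Cdkn2c were higher in the heart-derived mean by 2.35 and 2.66.

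The 17 mitosis genes followed the module in the cultures, all 17 being at least 2-fold lower in the culture mean, beside 12.3% of all genes, with a median of -2.06. In the neonatal library they differed from iPS cells by a median of -0.46, 3 of 17 being at least 2-fold lower beside 9.59% of all genes, and in the adult library by -1.45. The spindle checkpoint genes Bub1 and Bub1b differed by -2.72 and -2.82 in the culture mean and -2.03 and -1.42 in the heart-derived mean. Cyclin B2 (Ccnb2) differed by -2.56 and -0.83, and the kinetochore gene Cenpf by -2.08 and -1.51. The corresponding medians of the replication module were -1.73 in the culture mean, -0.78 in the neonatal and -1.70 in the adult library. No test of a difference between the lists was possible with 1 library per group.

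**Figure D5:**
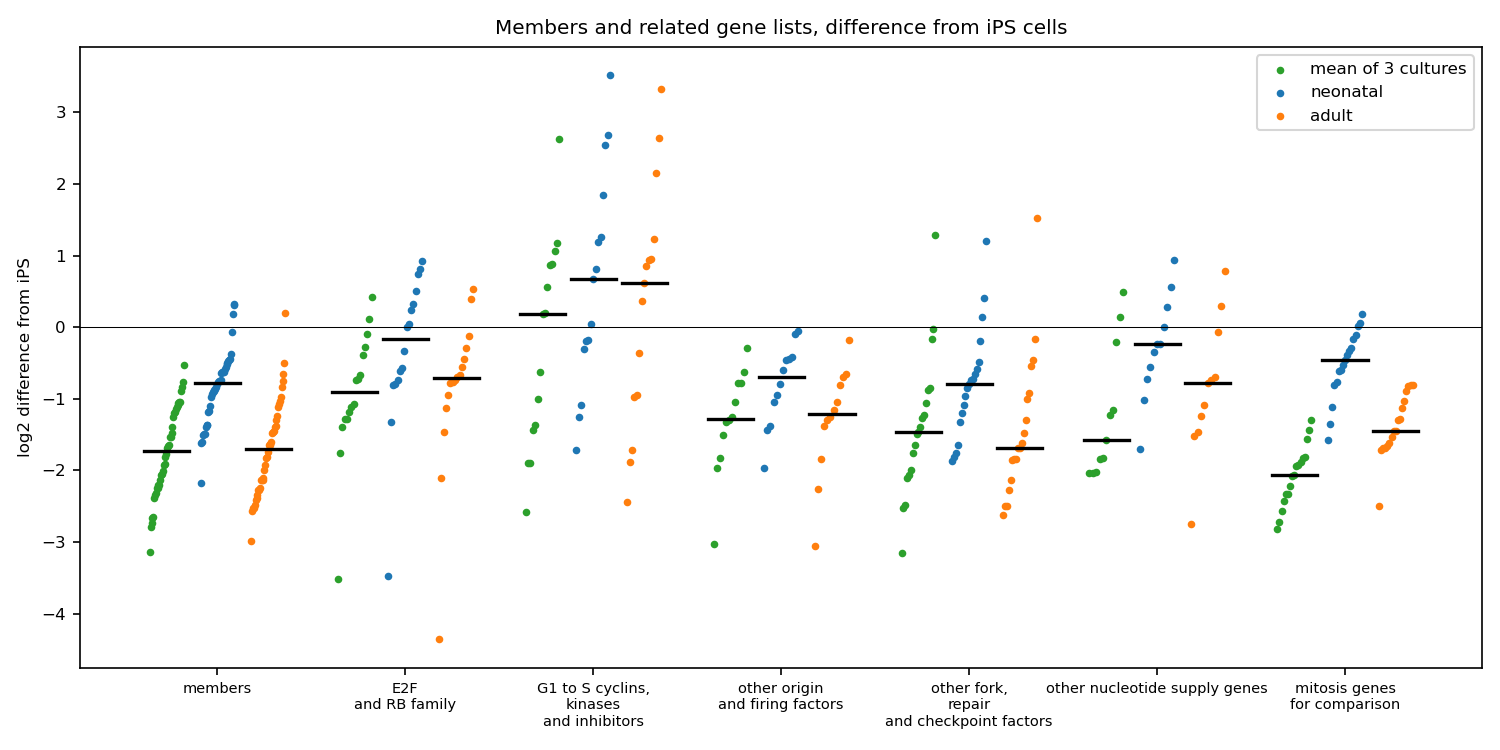
Log2 difference from iPS cells of the 40 members and of the genes of 6 related lists, for the mean of the 3 cultures (green), the neonatal (blue) and the adult library (orange), each point a gene and each black line a median. Medians are below 0 for the members and for 5 of the lists, and above 0 for the G1 to S list, whose genes lie on both sides.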

How the data were processed

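RNA from 6 samples was hybridised to 1 array each, from 300 ng of total RNA, per the labels' protocols. The deposited table gives 41345 probe sets as log2 values, a scale inferred from their range. The submitters' processing notes name RMA, with its version not given in the sources used here. RMA equalises the arrays, so a change in total RNA could not be seen. Probe sets were named by the platform annotation (23521 with 1 symbol, 1814 with several, 16010 unnamed) and averaged per gene. Of the 40 measured members, 36 have 1 probe set and 4 have 2. A gene passed the filter if its mean over the 6 libraries reached 5.20, the median of the whole table, and was counted at a 2-fold difference or more. No test was run. Technical error was taken as the SD of the difference between the log2 differences of 2 probe sets of a gene, divided by the square root of 2. It leaves out error that probe sets on the same array share. The number of arrays limits the precision. Members, lists and comparisons were chosen with earlier results of these data known. Any measured member may be named; of each list, the 3 genes with the largest size of difference in the culture or heart-derived mean, beside chosen cell type markers and sex-linked genes. Alternatives were other filters, the brightest probe set, cyclic loess (limma 3.58.1) and a housekeeping shift; pandas 2.3.3 did the rest. The counting step was tested on simulated data.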

Additional observations from a re-analysis of the deposited data

Results flagged for a closer look

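For 3 of the members and pathway list genes, every culture lay below iPS cells and both heart-derived libraries lay above, and this difference was not tested. Tyms differed by -1.05 in the mean of the cultures and by 0.20 in the heart-derived mean. The cyclin D1 gene Ccnd1 was at 8.99 in iPS cells, 8.24, 7.71 and 8.0 in the cultures, 10.25 in the neonatal and 9.94 in the adult library, so the means differed by -1.0 and 1.11. Samhd1, which breaks down deoxynucleotides, differed by -0.20 in the mean of the cultures and by 0.62 in the heart-derived mean. Its differences of -0.28, -0.15 and -0.17 in the cultures and 0.30 in the adult library were smaller than the probe set SD (0.499 to 0.557). In the neonatal library it differed by 0.94 (SD 0.552). The heart-derived differences of Tyms, 0.19 and 0.20, were also smaller than that SD. Both means of a gene share the same iPS library, and 683 of the 12905 genes that passed the filter (5.29%) had this order. Of the 3 genes, 1 was among the 40 members and the others were in the lists of 16, 15, 12, 19, 11 and 17 genes. The order was thus no more common among the members than among all genes.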

How the results depend on the processing

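No paired analysis was possible because each group has 1 library, and no library could be left out within a group. The 3 other filters, run on the 18 counts of members at least 2-fold lower or higher, kept each within 1.5-fold. The brightest probe set, run on 30 results, kept each count within 1.5-fold and each median within 0.58. Cyclic loess did too, except for the 17 members at least 2-fold lower in adult minus neonatal, which became 11. The shift to an equal median of 9 housekeeping genes changed most comparisons with iPS cells. Median member differences were then -0.74 with DMSO, -0.62 with NRG-1, -0.18 with both and -0.87 in the adult library, and the neonatal median turned from -0.78 to 0.09. Members at least 2-fold lower numbered 12, 13, 3, 1 (neonatal) and 18 (adult), beside 1.85%, 2.71%, 1.07%, 2.71% and 3.69% of all genes. At least 2-fold higher were 3 (neonatal) and 1 (adult), far below the shares of all genes, 38.8% and 38.3%. Members below iPS cells in all 3 cultures numbered 22, beside 5.09% of all genes. Those above all cultures numbered 23 in the neonatal library, beside 17.0%, and 4 in the adult library, beside 12.8%. The shift adds the same amount to every gene of a library, and relative to the median of all genes the 9 medians were as before. The housekeeping genes themselves ranged from -2.35 (Tfrc) to 2.61 (B2m) in the culture mean. The median level that set the shift was that of Tfrc in iPS cells and of Hprt in each culture, so these counts depend on single genes. Signal over background could not be judged, since the table has no detection values.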

Other observations

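The members with 2 probe sets showed how far a value depends on the probe set. For Pole and Rpa1 one probe set was dim, at 3.93 to 4.49 and 4.78 to 5.52. Against iPS cells the mean over both probe sets thus gave smaller differences than the brighter probe set. For both agents minus DMSO the Rpa1 mean gave the larger difference, -0.27 against -0.09. For Rrm2 both probe sets were lower in each of the 3 cultures than in iPS cells.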
